A study of Mus musculus with 16 samples.

Results

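The subject is 10 mouse genes that serve the acrosome and sperm head or that are switched on with such genes: Acr, Acrv1, Zpbp, Zpbp2, Spaca1, Spink2, Spata16, Insl6, Tcp11 and Meig1. They were found by symbol among the 55414 gene rows of each deposited table, and all 10 matched 1 row. The data are 16 RNA libraries of mouse testis taken on postnatal day 14 (P14) or 16 (P16). Animals of all 3 kinds, namely controls, Cre controls and conditional knockouts of Ythdc2 (cKO), received tamoxifen, 10 mg/ml, on P12 and P13, so the controls carry that treatment too. In the column names the controls are marked WT and the Cre controls Ctrl. The labels name no Cre driver, floxed allele or strain, and they do not say whether a library came from 1 animal or from pooled animals. Each stage had 2 control and 3 cKO libraries, and the Cre controls numbered 2 at P14 and 4 at P16. Nothing in the labels says how replicates arose, so the p-values measure only the spread between these libraries, which may be technical.

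The acrosome is a vesicle derived from the Golgi apparatus that caps the sperm nucleus and holds the enzymes and binding proteins used at the egg coat. Its proteins are needed in spermatids, but transcription of many of their genes starts earlier, in pachytene spermatocytes, and the mRNA is kept for later translation. Ythdc2 encodes an RNA helicase of germ cells that is required for entry into and passage through meiotic prophase, and in the first wave of spermatogenesis P14 and P16 fall while pachytene cells accumulate. By role, Acr (acrosin, a serine protease), Acrv1 (an acrosomal matrix protein) and Spink2 (a serine protease inhibitor of the acrosome) belong to the acrosome's contents. Zpbp and its paralog Zpbp2 encode matrix proteins named for binding the egg coat, Spaca1 an inner acrosomal membrane protein, and Spata16 a protein of the Golgi and the forming acrosomal vesicle. Insl6 (an insulin-like peptide of germ cells), Tcp11 (a testis protein linked to sperm motility) and Meig1 (a carrier on the manchette, the microtubule skirt that shapes the sperm head) are not acrosome proteins, and the group is named here for its majority.

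Ribosomal RNA was removed with Ribo-Zero (termed the first kit) for the controls and the first 2 cKO libraries of a stage (numbers 1 and 2), and with NEBNext rRNA Depletion v2 (the second kit) for Cre controls and cKO library 3. Reads on genes ranged from 22220565 to 27531529 with the first kit and from 14494867 to 23200252 with the second. Ythdc2 stood at 2666 and 2609 in the P16 controls and at 501.7 and 540.6 in cKO, with no overlap between cKO and either control type in any of the 4 tables. Values are deposited normalized values, that is reads divided by a size factor set within each table, so levels are compared only inside a table. The testis label was checked on markers: the pachytene list (Mybl1, Hspa2, Ldhc and 7 others) was present in every library, whereas haploid spermatids were nearly absent. Of 8 haploid markers none reached the filter, Prm2 had 0 reads in all 16 libraries, Prm1 had at most 1 read, and Tnp1 had 1 to 6 reads. In whole testis, a different number of cells of a type and a different amount of RNA per cell cannot be told apart.

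Acrv1 was barely detected, whereas the other 9 genes were measured well. It had 0 and 2 reads in the P14 controls, 6 and 1 in cKO, and 1 read in each of the 4 first-kit libraries at P16. In the second kit it had 1 read in Cre control P14 library 2 and 0 reads in the 7 other libraries. Acrv1 therefore never passed the filter on low values (10 or more in 2 or more libraries of a table) and entered no test, and 9 of the 10 genes are followed below.

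Levels can be compared between genes only per length, here as the deposited value per kilobase of merged exon. In the P16 controls Meig1 was highest, at 3617 ± 137 (SD, n = 2), followed by Spink2 at 760.5 ± 13.6 and Spata16 at 426 ± 20.9. Tcp11 (347 ± 10.8), Insl6 (324 ± 11.9), Zpbp2 (267 ± 22.9), Zpbp (221 ± 6.23) and Acr (207 ± 9.80) came next, and Spaca1 was lowest of the 9, at 87.8 ± 8.16. No neighbours in that order overlapped between the 2 control libraries. In the P16 cKO libraries Zpbp was in the third place instead of the seventh, at 588.5 ± 57.6 per kilobase, while Meig1 (3773 ± 323) and Spink2 (1162 ± 24.7) were again first and second. There Zpbp2 (341 ± 10.2) and Tcp11 (337 ± 2.94) overlapped. At P14 the control order was less sharp: Meig1 led at 1377 ± 39.7, Spink2 (111 ± 19.9) followed with a range that overlapped those of Zpbp (108 ± 7.52) and Insl6 (96.1 ± 6.02), and the other 5 lay between 51.7 and 70.4.

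From P14 to P16 all of the 9 genes but Spaca1 rose in control, in cKO and in Cre control, while Spaca1 passed the test in cKO but not in the 2 control types. For this comparison the reads behind the deposited values were recovered and put on 1 scale as log2 CPM (log2 of the reads of a gene scaled to a common library size). In control mice 8 of 9 tested genes were higher at P16 and 0 lower (limma, adjusted p under 0.05, termed called), where 20.0% of all 18469 genes were called, 13.4% higher and 6.67% lower. In cKO 9 of 9 were higher, against 29.9% of all genes called, 16% higher and 13.9% lower. In Cre controls it was 8 of 9, with 0 lower, against 11.9% called, 9.17% higher and 2.74% lower. The median change was 1.63 in control, 1.95 in cKO and 2.27 in Cre control on the log2 scale, beside -0.015, 0.011 and -0.0075 over all genes tested.

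Among the genes of the forming vesicle and acrosomal contents, Spata16 and Spink2 changed most in controls. Spata16 stood at 2.35 and 2.44 log2 CPM in the P14 controls and at 5.16 and 5.07 at P16, a change of 2.72 on the log2 scale (SE 0.24, limma, adjusted p = 0.00022). Spink2 went from 1.69 and 2.04 to 4.55 and 4.51, a change of 2.67 (SE 0.24, adjusted p = 0.00022). The P14 and P16 values of both were far apart, with no overlap. Acr, whose protease SPINK2 is thought to restrain, rose by 1.58 (SE 0.18) in control and 1.50 (SE 0.18) in cKO.

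The paralogs Zpbp and Zpbp2 differed. Zpbp2 rose by 2.26 (SE 0.26) in control and 2.24 (SE 0.26) in cKO. Zpbp, already the better expressed of the pair at P14, rose by 0.93 (SE 0.16) in control and by 1.81 (SE 0.16) in cKO. In log2 CPM, the Zpbp values were 4.18 and 4.31 in P14 controls, 5.21 and 5.15 in P16 controls, 4.50 and 5.09 in P14 cKO and 6.49 and 6.71 in P16 cKO.

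Spaca1 showed the smallest change in each group. Its log2 CPM was 2.41 and 2.03 in P14 controls and 2.34 and 2.54 in P16 controls, so the stages overlapped, with a difference of 0.22 on the log2 scale (SE 0.16, limma, adjusted p = 0.379). In cKO it went from 2.25 and 2.34 to 2.86 and 3.09, a rise of 0.68 (SE 0.16, adjusted p = 0.011) that lost its call without cKO P16 library 2 (adjusted p = 0.0927). In Cre controls the difference was 0.53 (SE 0.19, adjusted p = 0.108).

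Of the genes outside the acrosome, Tcp11 rose by 2.40 (SE 0.30) in control and 2.2 (SE 0.30) in cKO, Insl6 by 1.63 (SE 0.19) and 1.95 (SE 0.19), and Meig1 by 1.29 (SE 0.13) and 1.18 (SE 0.13). In Cre controls Spink2 (3.62, SE 0.42), Spata16 (3.21, SE 0.36) and Tcp11 (3.08, SE 0.40) had the highest changes, and Zpbp rose by 1.23 (SE 0.20). The 4 P16 Cre controls were spread widely: Spink2 stood at 5.01, 3.89, 4.53 and 3.15 log2 CPM, all above the 0.24 and 0.80 at P14. Without Cre control P14 library 1, Zpbp (adjusted p = 0.0503) and Zpbp2 (adjusted p = 0.0672) lost their calls in that group. Within the sequencing run that held both stages, the single P16 Cre control exceeded the mean of the 2 P14 libraries by 4.49 for Spink2, 3.86 for Spata16 and 0.62 for Spaca1, with no test. Over the same interval all 10 pachytene markers were called higher in control and in cKO, with median changes of 1.14 and 1.08, and the part of that shift in the rise of these genes was not tested.

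**Figure D1:**
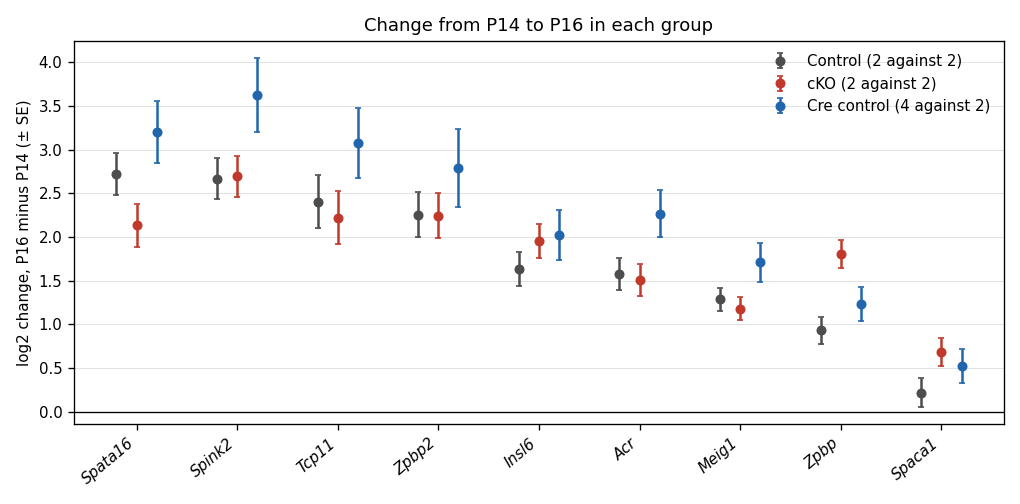
Log2 change from P14 to P16 (vertical axis, log2 CPM difference, bars show the standard error) of the 9 tested genes, ordered by their change in control, for control, cKO and Cre control. All points lie above 0. Spaca1 is lowest in each group, and Zpbp is the gene whose cKO point (1.81) lies farthest above its control point (0.93).

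Because most of these genes rose between stages, the sequences before their start sites were read. RefSeq windows (GRCm38.p6) of 250 bases before the annotated start were held for 8 of the 10 genes, Acr and Insl6 having no entry. Shown are the windows at the most upstream start of Zpbp and its paralog Zpbp2, of Spata16 and Tcp11, which rose strongly with stage (Spink2, not shown, rose more than Tcp11), and of Spaca1, which did so least. Each is written 5′ to 3′ on the gene's own strand, and capitals mark matches to the motifs named after them.
Zpbp, chr11:11462420-11462669, minus strand: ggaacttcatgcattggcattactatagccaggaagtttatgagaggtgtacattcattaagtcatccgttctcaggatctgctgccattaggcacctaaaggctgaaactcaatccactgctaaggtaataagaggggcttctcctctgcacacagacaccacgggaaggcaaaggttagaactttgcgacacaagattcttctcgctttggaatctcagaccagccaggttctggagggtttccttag
Zpbp2, chr11:98550847-98551096, plus strand: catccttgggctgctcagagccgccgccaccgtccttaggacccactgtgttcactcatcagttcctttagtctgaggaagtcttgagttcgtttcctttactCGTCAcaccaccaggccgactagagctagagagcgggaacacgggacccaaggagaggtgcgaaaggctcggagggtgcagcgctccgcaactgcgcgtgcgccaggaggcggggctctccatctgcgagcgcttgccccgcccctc
Spata16, chr3:26637381-26637630, plus strand: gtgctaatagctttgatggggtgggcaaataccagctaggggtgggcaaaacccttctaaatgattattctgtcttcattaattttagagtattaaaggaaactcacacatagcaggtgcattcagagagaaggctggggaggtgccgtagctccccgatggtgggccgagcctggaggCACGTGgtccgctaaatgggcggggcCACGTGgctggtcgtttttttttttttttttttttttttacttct
Tcp11, chr17:28080640-28080889, minus strand: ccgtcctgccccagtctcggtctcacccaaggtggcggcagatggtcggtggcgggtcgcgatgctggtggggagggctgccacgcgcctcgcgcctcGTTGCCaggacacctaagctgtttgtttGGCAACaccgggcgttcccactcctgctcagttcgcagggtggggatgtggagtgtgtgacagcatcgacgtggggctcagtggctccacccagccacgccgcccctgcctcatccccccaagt
Spaca1, chr4:34050068-34050317, minus strand: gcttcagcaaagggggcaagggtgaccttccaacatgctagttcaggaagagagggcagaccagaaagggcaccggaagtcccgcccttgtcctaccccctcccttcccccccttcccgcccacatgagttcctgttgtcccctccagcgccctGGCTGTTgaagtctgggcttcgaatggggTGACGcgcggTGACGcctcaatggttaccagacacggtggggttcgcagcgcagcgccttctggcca

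The letters searched, on both strands, were AACNGNC for the core of a MYB site (MYBL1 is the MYB factor of pachytene cells), GTTGCC for the core of an RFX site, TGACG for that of a cAMP response element and CACGTG for an E box. Over all 32851 windows of this length they occurred in 27.7%, 10.4%, 17.8% and 6.02%, respectively. Among the most upstream windows of the 8 genes, 1 held the MYB letters (Spaca1), 1 the RFX letters (Tcp11, with 2 matches in opposite orientation), 2 the cAMP letters (Spaca1 with 2 matches, Zpbp2 with 1) and 1 the E box (Spata16, with 2 matches). Zpbp, Meig1, Spink2 and Acrv1 held none of the 4 in that window. The 8 genes had 15 windows in all, and some at later starts held matches. A later window held the cAMP letters for Meig1, the MYB letters for Spink2, and the MYB, RFX and cAMP letters for Tcp11. No motif was common to the group, and a match is a string of letters and not a measured binding site.

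At P16, cKO testes held more RNA of 5 of the 9 tested genes than control testes did, and Zpbp stood far above the rest. Called higher were Zpbp, Spink2, Spaca1, Insl6 and Zpbp2, and 0 were called lower. In this comparison 38.6% of all 17986 genes were called, 18.6% higher and 19.9% lower, so a count of 5 of 9 is read against a background in which many genes differ. The median change of the 9 was 0.35 on the log2(value + 1) scale, beside -0.00050 over all genes tested.

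Zpbp had deposited values of 958.1 and 920.7 in the P16 controls and of 2327 and 2673 in cKO. Both cKO libraries lay above 2 times the higher control value, and the groups were far from overlapping. Control averaged 939 ± 26.4 (SD, n = 2) and cKO averaged 2500.1 ± 245 (SD, n = 2), a change of 1.41 on the log2 scale (SE 0.066, limma, adjusted p = 2.11e-08) or 2.65-fold. In the annotation used for names, Zpbp overlaps Spata48 and the pseudogenes Gm12598 and Gm12599 on the opposite strand, with 223 exon bases shared in all. How these bases divide among them was not read, and only Spata48 was looked at. Spata48 had 3 to 20 reads in each of the 16 libraries, and at P16 it stood at 17.7 and 14.2 in control and 7.76 and 12.4 in cKO, so it did not move with Zpbp.

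Spink2 came second. Its values were 606.8 and 591.7 in control and 929.7 and 902.1 in cKO, with each group within a narrow range, and the log2 change was 0.61 (SE 0.065, limma, adjusted p = 1.85e-05). Acr, the protease on the other side of that pair, stood at 334.6 and 312.9 in control and at 371.7 and 373.9 in cKO. The Acr groups did not overlap, but the difference of 0.20 (SE 0.089, adjusted p = 0.0884) was not called.

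Zpbp2 and Spaca1 were also higher. Zpbp2 stood at 477.0 and 422.5 in control and 561.9 and 586.2 in cKO (log2 change 0.35, SE 0.083, limma, adjusted p = 0.0047). Spaca1 stood at 130.9 and 149.3 in control and 187.3 and 216.5 in cKO (0.52, SE 0.13, adjusted p = 0.0073). Neither pair of groups overlapped, yet these calls were the less secure ones. Zpbp2 lost its call without control library 2 (adjusted p = 0.0674), and Spaca1 without control library 1 (0.0610) or cKO library 2 (0.0507).

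Insl6 rose from 223.4 and 235.4 to 332.9 and 297.2, a change of 0.45 on the log2 scale (SE 0.10, limma, adjusted p = 0.0039). The other 3 genes gave no call. Spata16 stood at 930.0 and 867.7 in control and 789.9 and 843.1 in cKO, a difference of -0.14 on the log2 scale (SE 0.067, adjusted p = 0.123), and was called lower only without cKO library 2 (adjusted p = 0.0486). Tcp11 (1361 and 1303 against 1302 and 1286) differed by -0.041 (SE 0.055, adjusted p = 0.595). For Meig1 (3879 and 4093 against 3906 and 4410) the difference was 0.059 (SE 0.057, adjusted p = 0.447), and it was called higher only without cKO library 1 (adjusted p = 0.0116). Tcp11 shares 447 exon bases in all with a pseudogene and a processed transcript on its own strand, so its reads may be shared with them.

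**Figure D2:**
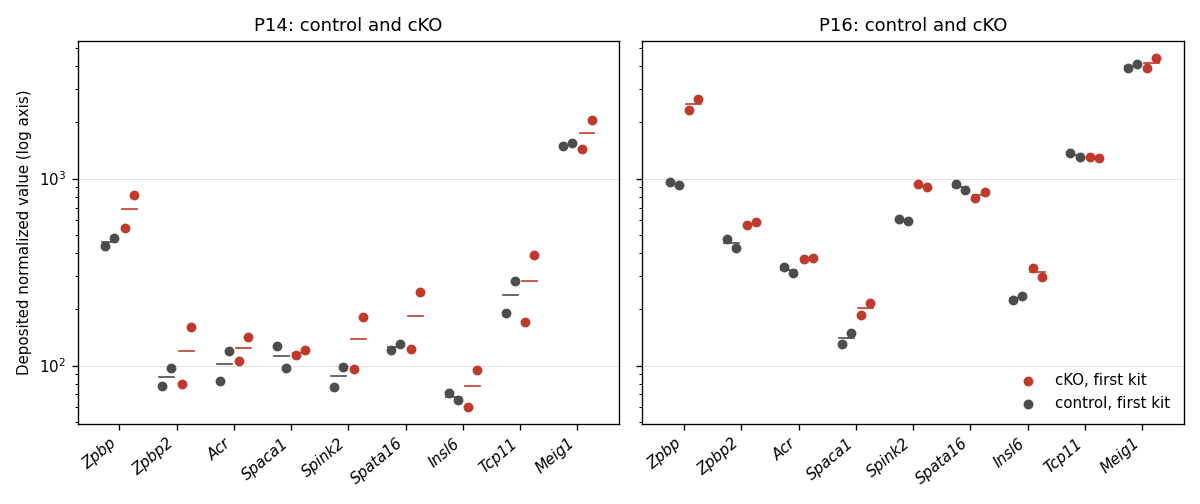
Deposited normalized value (vertical log axis) of the 9 tested genes in each library of the tables with control and cKO at P14 (left) and P16 (right). Each point is 1 library and each short line the mean of a group. At P16 Zpbp separates most (958.1 and 920.7 in control, 2327 and 2673 in cKO), and at P14 1 of the 2 cKO libraries is high for most genes.

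Other cell types and stages moved with the same contrast, in which 18.6% of all genes were called higher and 19.9% lower. In the P16 table the summed early prophase markers were 19039 and 19365 in control and 13555 and 14181 in cKO, with 9 of 10 called lower, and 7 of 8 spermatogonia markers were called lower. Summed pachytene markers were 58507 and 59727 in control and 59741 and 66452 in cKO, with 4 of 10 called higher and 2 lower, and Ldhc did not differ by more than its error (log2 difference -0.0053, SE 0.045). Hspa2 (0.13, SE 0.049, limma, adjusted p = 0.0464) and Mybl1 (0.38, SE 0.052, adjusted p = 0.00012) were called higher. Sertoli markers summed to 92750 and 87479 in control and 118557 and 107248 in cKO (7 of 9 called higher), and all 5 macrophage markers and 2 of 5 Leydig markers were called higher. The haploid marker sum was 10.4 to 16.6 in control and 6.21 to 15.5 in cKO, with 5 of 8 genes at 0 reads in all P16 control libraries and 5 of 8 in cKO. Against Cre control at P16, 2 of 10 early prophase and 1 of 8 spermatogonia markers were called lower, beside 4.77% of all genes. Called higher were 1 of 9 Sertoli and 1 of 5 macrophage markers, beside 4.30%, and 0 of the pachytene and Leydig markers. The early prophase sums overlapped there (8772 to 11638 in Cre control, 9556 to 11691 in cKO), and so did the Sertoli sums. The macrophage sums did not (1894 to 2375 and 2635 to 2803). The part of the shifts against control in the higher values of the 5 genes was not tested.

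At P14 none of the genes was called against control. The count was 0 of 9 (limma, and 0 also by edgeR and DESeq2), where 0.00579% of all 17270 genes were called, a single gene, and at an unadjusted p under 0.05 Zpbp alone passed among the 9. Zpbp values were 434.9 and 480.1 in control and 545.7 and 820.3 in cKO, a difference of 0.55 on the log2 scale (SE 0.18, limma, unadjusted p = 0.0216, adjusted p = 1.00). Both cKO libraries were above both controls, and they differed widely from each other.

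That spread was shared by most of the genes. cKO P14 library 2 was the highest of the 4 libraries for Zpbp, Zpbp2 (159.8 against 77.5 to 96.4), Spink2 (181.0 against 76.4 to 98.6), Spata16 (246.4 against 121.6 to 130.0), Insl6 (94.5 against 60.2 to 71.1), Tcp11 (391.2 against 171.9 to 282.8), Acr (142.2 against 82.9 to 120.3) and Meig1 (2051 against 1437 to 1549). Spaca1 was the exception, at 121.0 against 97.5 to 127.0. Without that library Tcp11 stood lower in cKO by 0.44 on the log2 scale, and Zpbp2, Spata16, Insl6 and Meig1 also had lower values in cKO than in control. The library was high for pachytene markers too, with a sum of 35639 where the other 3 had 24533 to 27452, and the part of this in the P14 values was not tested.

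Zpbp was the only one of the 9 genes whose cKO effect differed between the stages. The effect at P16 exceeded that at P14 by 0.87 on the log2 CPM scale (SE 0.22, limma interaction, adjusted p = 0.0435), where 7.50% of all 18469 genes were called, 2.95% in that direction and 4.55% in the other. The call was near its threshold. It was lost without any one of the 4 control libraries or of cKO P16 libraries 1 and 2 (adjusted p 0.0848 to 0.147), and kept without cKO P14 library 1 (0.56, adjusted p = 0.0120) or 2 (1.17, adjusted p = 0.00036). The effect also lay above 0 in each of these 8 fits. Spaca1 had the next highest value, 0.46 (SE 0.23, adjusted p = 0.244), and the other 7 lay between -0.59 for Spata16 and 0.32 for Insl6. Without cKO P14 library 1, so with only the high library left in that group, Spata16 (-1.10), Tcp11 (-0.79) and Meig1 (-0.38) were called as well, beside 16% of all 19243 genes.

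The tables with Cre controls asked the same question against another control type, but cKO libraries 1 and 2 are the ones used above and differ from every Cre control in kit, so these comparisons share their cKO samples with those against control. At P16 Zpbp was the only gene called among the 9 (higher), and 0 were lower, where 9.07% of all 19200 genes were called, 4.30% higher and 4.77% lower. Zpbp stood at 818.3, 525.4, 611.4 and 474.6 in the 4 Cre controls whereas the cKO libraries had 1906, 2204 and 1117. All 3 cKO libraries were above all 4 Cre controls, the second-kit library 3 included. The log2 change was 1.49 (SE 0.27, limma, adjusted p = 0.0367), and it lost its call when any one library other than cKO library 3 was left out (adjusted p 0.0742 to 0.191). In each of those fits 0 of all genes tested were called, so the deleted gene Ythdc2 lost its call as well. Without cKO library 3 the change was 1.78 and 4 of the 9 were called (Zpbp, Spaca1, Spink2 and Meig1) beside 49.5% of all 19046 genes, but there kit and genotype cannot be told apart.

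Within the second kit, Zpbp in cKO library 3 at P16 reached 184% of its Cre control mean, a log2 difference of 0.91. With the kit as a covariate, which gives the same value, the SE was 0.25 and the change was not called (limma, adjusted p = 0.134). For the other genes cKO library 3 lay inside the range of the 4 Cre controls, apart from Meig1, which was below it (978.1 against 1046 to 1901). Zpbp2 (389.1 against 135.2 to 516.0) and Spink2 (443.4 against 175.0 to 633.3) were above their Cre mean, and Acr, Spaca1, Spata16, Insl6, Tcp11 and Meig1 below theirs. The single cKO library gives these values no replicate check. Of the Cre controls at P16, only library 1 shared the sequencing run of cKO library 3. That Cre control held the highest Cre control value of Zpbp (818.3), Zpbp2 (516.0) and Spink2 (633.3). Against it alone, cKO library 3 was higher for Zpbp (1117) but lower for Zpbp2 and Spink2. The part of the run in these differences was not tested.

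The 4 P16 Cre controls varied in step across the genes. Cre control libraries 1 and 3 were the highest 2 of the 4 for all 9 genes, and library 4 was the lowest. Tcp11, for example, stood at 1822, 1226, 1795 and 653.5 in libraries 1 to 4, Acr at 563.2, 305.7, 429.3 and 262.6, and Spata16 at 987.2, 527.5, 880.5 and 346.2. The pachytene marker sums followed the same order, at 68610, 45272, 58421 and 37889, and cKO library 3 had 38777. Library 1 came from a different sequencing run than libraries 2 to 4. The part of this spread in the comparison was not tested.

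**Figure D3:**
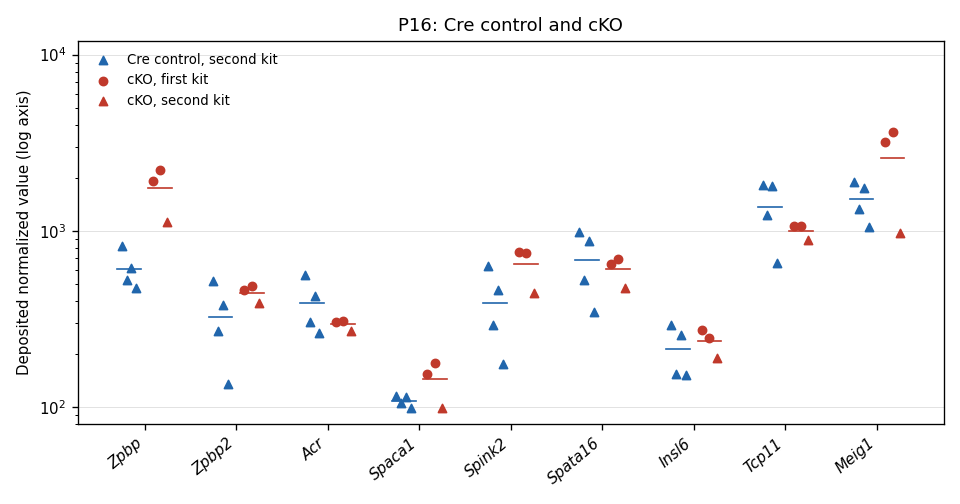
Deposited normalized value (vertical log axis) of the 9 tested genes in the 4 Cre control libraries (blue triangles, second kit) and 3 cKO libraries (red, circles for the first kit and a triangle for the second) at P16. Short lines are group means. For Zpbp all 3 cKO points (1117 to 2204) lie above all Cre controls (474.6 to 818.3), and for Zpbp2, Acr, Spink2, Spata16, Insl6 and Tcp11 the cKO points lie inside or overlap the Cre control range.

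All P16 libraries fitted together, with the kit as a covariate, left Zpbp as the only called gene of the 9, at 1.20 (SE 0.17, limma, adjusted p = 0.0036), where 14.5% of all 19314 genes were called and 7.06% were called higher. In this fit controls and Cre controls were taken as a single group. Each control type came from its own kit, so the kit and the control type cannot be told apart. Spink2 (0.51, SE 0.32, adjusted p = 0.306), Zpbp2 (0.40, SE 0.33, adjusted p = 0.443), Spaca1 (0.25, SE 0.16, adjusted p = 0.295) and Insl6 (0.22, SE 0.23, adjusted p = 0.552) kept a positive sign without a call. The errors of all of the 9 genes except Spaca1, Zpbp included, were more than 2 times those within the first kit.

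**Figure D4:**
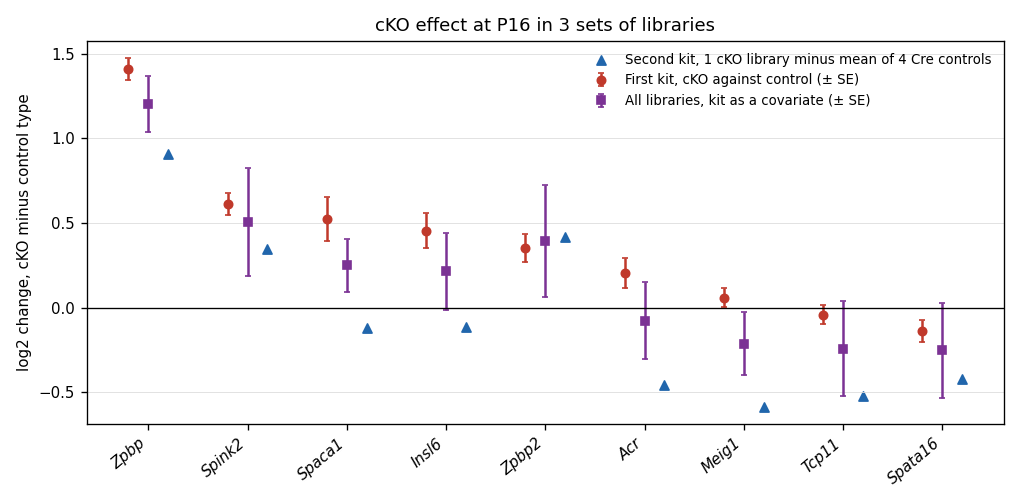
Log2 change of cKO against the control type at P16 (vertical axis) for the 9 tested genes in 3 sets of libraries: cKO against control in the first kit (red circles, ± SE), all P16 libraries with kit as a covariate (purple squares, ± SE), and the single second-kit cKO library minus the mean of 4 Cre controls (blue triangles, no error). Zpbp is highest in each set (1.41, 1.20 and 0.91), and for 6 of the 9 genes the blue triangle lies below 0.

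Against Cre controls at P14 the count of calls was 0 of 9 (limma, and 0 also by edgeR and DESeq2), where 0% of all 18196 genes were called, and 0 of the 9 had an unadjusted p under 0.05. Without cKO library 3, 4 of the 9 were called higher (Meig1, Zpbp, Spink2 and Spata16) beside 34.9% of all 17924 genes called, but in that fit kit and genotype cannot be told apart. The first-kit cKO libraries were high and the second-kit library low. Meig1, for example, stood at 358.4 and 478.9 in Cre controls and at 1163, 1669 and 247.5 in cKO libraries 1 to 3. Zpbp was 237.4 and 229.0 in Cre controls and 441.8, 667.5 and 240.3 in cKO, so its second-kit cKO library stood at 103% of the Cre control mean. For Acr (52.3%), Insl6 (52.2%), Spata16 (43.9%), Meig1 (59.1%), Spaca1 (62.4%) and Zpbp2 (69.4%) that library lay below both Cre controls, and its pachytene marker sum was 13840 beside 14122 and 18647. The fit with the kit as a covariate, which takes its genotype difference from that library alone, called 0 of the 9 (limma, adjusted p 0.990 to 0.997).

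A wider list of 45 further genes linked to the acrosome and sperm head was read, of which 44 were matched and 22 were expressed well enough to be tested. It also holds genes of Golgi and vesicle traffic, and which cells of the testis their reads came from was not tested. Of the 44, 13 had 0 reads in all 4 first-kit libraries at P16, among them Spam1 (the sperm hyaluronidase), Izumo2 and Sun5. At P16, 11 of the 22 were called higher in cKO than in control and 5 lower, where 18.6% of all 17986 genes were called higher and 19.9% lower. The median was 0.14 beside -0.00050 over all genes. Spaca6, a sperm protein needed for fusion with the egg, was highest at 0.75 (SE 0.14, limma, adjusted p = 0.0011), followed by Crisp2 (0.49, SE 0.053) and Dpy19l2 (0.46, SE 0.070), which anchors the acrosome to the nucleus. Lowest of the called genes were Spaca9 (-0.76, SE 0.25), Spag4 (-0.75, SE 0.18) and Smap2 (-0.39, SE 0.059), a Golgi trafficking protein. Izumo1, named after its value was seen, was lower still (-0.90, SE 0.40) but not called (limma, adjusted p = 0.0934). It had at most 25 reads in a library of this comparison. All 22 changes were smaller in size than the 1.41 of Zpbp. With all P16 libraries and the kit as a covariate, 3 of the 22 were called higher and 4 lower. In that fit 14.5% of all 19314 genes were called, 7.06% of them all being higher calls.

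**Figure D5:**
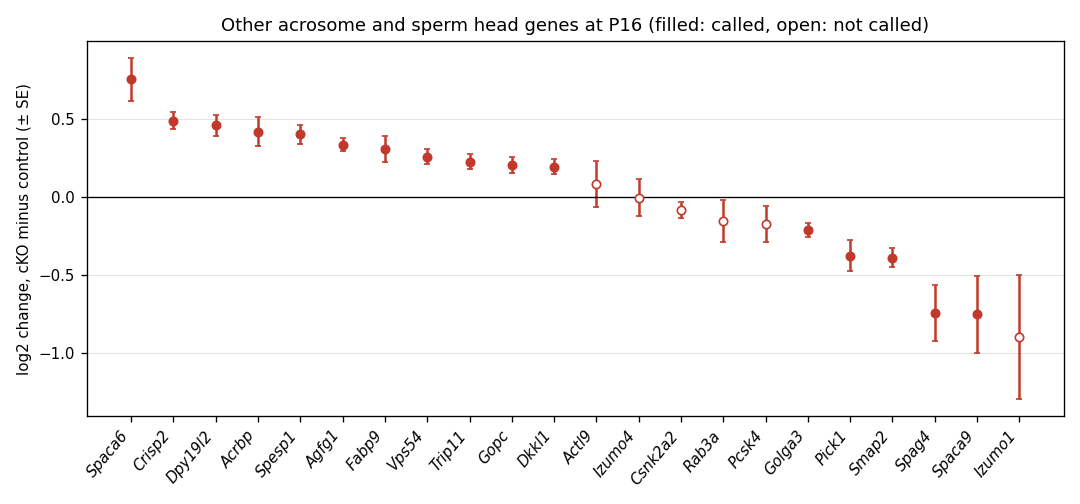
Log2 change of cKO against control at P16 (vertical axis, ± SE, 2 libraries a group) for the 22 tested genes of the wider acrosome and sperm head list, ordered by value. Filled points were called (11 higher, 5 lower) and open points were not. Spaca6 is highest at 0.75, below the 1.41 of Zpbp.

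Of those 22, 15 were called higher at P16 than at P14 in control, 14 in cKO (with Smap2 lower) and 10 in Cre control, with medians of 0.32, 0.48 and 0.27. Crisp2 (2.51, SE 0.21), Actl9 (2.32, SE 0.35) and Dpy19l2 (2.21, SE 0.20) rose most in control. The count was lower in control without P16 library 2 and in Cre control without P14 library 1, and so were the calls over all genes. Both fits left a group with 1 library. At P14, 0 of 22 were called against control (limma, and 0 by edgeR and DESeq2, with 1 without cKO library 1) and 0 against Cre control (9 without cKO library 3, beside the 34.9% of all genes, where kit and genotype cannot be told apart). Against Cre control at P16, Vps54 (0.66), Trip11 (0.66) and Agfg1 (0.51), which serve vesicle traffic, were called higher, and Spaca9 (-1.07) and Smap2 (-0.52) lower. There 4.30% of all genes were called higher and 4.77% lower. These 5 calls became 0 when any one library other than cKO library 3 was left out, in fits that called 0 of all genes. Without cKO library 3 there were 14 of 22, beside the 49.5% of all genes, where again kit and genotype cannot be told apart. The cKO effect differed between stages for Spaca6 (0.98, SE 0.22, limma interaction, adjusted p = 0.0284) and Agfg1 (0.29, SE 0.069, adjusted p = 0.0359). Of all genes, 2.95% were called in that direction. Without any one of the 4 control libraries or cKO P16 library 1, 0 of the 22 were called, without cKO P16 library 2 there was 1, and without cKO P14 library 1 there were 9 of 23 tested, beside the 16% of all genes. Spaca6 log2 CPM was 1.85 and 1.84 in P16 controls and 2.63 and 2.58 in cKO, beside 2.30 and 2.35 and 2.29 and 1.91 at P14.

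Among 6 regulators of late spermatocyte and spermatid genes, Mybl1 was called higher in cKO at P16 (above) and Taf7l lower (-0.78, SE 0.046, limma), Taf7l being named after its value was seen. Tcfl5, Rfx2, Sox30 and Crem were not called there. From P14 to P16 in control, 5 of the 6 were called higher, led by Rfx2 (0.87, SE 0.14), beside 13.4% of all genes. Mybl1 values in the P16 table were 3449 and 3488 in control and 4283 and 4754 in cKO.

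Over the 8 first-kit libraries the median centred profile of the 9 genes was -1.18 and -0.96 in P14 controls, -1.15 and -0.44 in P14 cKO, 0.71 and 0.70 in P16 controls and 1.14 and 1.14 in P16 cKO, in log2 CPM. Of 18460 genes compared, the 3 non-members nearest to it were C530008M17Rik, Fam98c and Efcab5, with root mean square distances of 0.060, 0.086 and 0.097. Of the 9 genes themselves Insl6 was nearest to the profile, at 0.11, and Spaca1 farthest, at 0.74. Zpbp was at 0.44, lying below the profile in both P16 controls (0.0013 and -0.053) and above it in the other 6 libraries. These distances describe 8 libraries that share kit and run.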

How the data were processed

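Members and gene lists were chosen with earlier results of these data known, so no pattern here is independent support for them. The authors deposited 4 tables of normalized values, 1 per stage and control type. Per the submitters' processing notes, Trim Galore, STAR, HTSeq, DESeq2 and the builds GRCm39 and mm39 were used, and versions, annotation release and strand setting are not given in the sources used here. Per the column names the reads counted were trimmed first mates, and per the labels' protocols the library kit was directional. The deposited values are a signal: read counts divided by a size factor within each table. In all 20 columns 100% of the values were whole multiples of 1 read (within 0.01 read), so reads were recovered. The 4 summary rows (53.4% to 63.0% of reads) were left out of tests. No column was left unmatched (0). Names came from GENCODE M21 (GRCm38), matching 52081 of 55414 IDs and 118 of 119 list entries. No coordinates of the build the authors used are given.

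The main test was limma 3.58.1 (R 4.3.3, eBayes with trend) on log2(value + 1) for genes that reached 10 in 2 or more libraries of the table, with Benjamini-Hochberg adjustment over all genes and calls at 0.05. A fold change on this scale understates that of low genes. Stage and interaction fits were limma fits to TMM-scaled log2 CPM (prior count 1) from recovered reads. edgeR 4.0.16 and DESeq2 1.42.0 were run on recovered reads as alternatives. Scripts were tested on simulated data. Also tried were a pseudocount of 0.1 or 10, no filter or a minimum of 50, a prior count of 5, quantile or TMM scaling, untrended eBayes, a replicate block, a kit covariate, and leaving out each library. Named were the 10 genes and Ythdc2 in every comparison, up to 3 called higher and 3 lower of the wider acrosome list, fixed marker genes, and the 3 nearest profiles.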

Additional observations from a re-analysis of the deposited data

Results flagged for a closer look

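The cKO effect on Zpbp differed between the stages by a test of the difference itself. It was larger at P16 than at P14 by 0.87 on the log2 CPM scale (SE 0.22, limma interaction, adjusted p = 0.0435), with both cKO libraries above both controls at each stage. In this test 7.50% of all 18469 genes were called. The Zpbp call was near its threshold and was lost with eBayes without trend, with no filter and in most fits without 1 library. The effect on Ythdc2, the deleted gene, also differed, by -0.72 (SE 0.11, limma interaction, adjusted p = 0.0082), so the loss of its RNA was deeper at P16. Among the 4 Cre control P16 libraries, a Dixon test for outlying values flagged 0 of the 11 sets examined. With 4 values in a set this test can flag only a very wide gap, so no more is read from it.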

How the results depend on the processing

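Each group had 2 to 4 libraries, so the spread is poorly known, and Acrv1, Prm1 and Prm2 were at or near 0 reads, which limits any statement on them to this depth. Against control at P16, 5 of 9 genes were called, 2 with eBayes without trend (Zpbp and Spink2), 1 with all libraries and the kit as a covariate (Zpbp), and 4 to 6 leaving out 1 library. All 17986 genes gave 6939 calls, 1806 with eBayes without trend and 2800 with the kit fit. Against Cre control at P16 the 1 call became 0 with eBayes without trend, the kit as a covariate or the replicate block, and 0 to 4 leaving out 1 library. The 1741 calls over all genes became 32, 1 and 0 in these 3 fits, and 4140 by DESeq2, 3277 with a pseudocount of 10, 3094 with quantile scaling and 917 with no filter. For the stage effect on cKO, the 1 call became 0 with eBayes without trend or no filter and 0 to 4 leaving out 1 library, and the 1385 calls over all genes became 136, 727 and, with the block, 2242. Against control at P14 the single call over all genes became 0 with eBayes without trend or no filter, 6 by DESeq2 and 5 with the block, and none of these settings called any of the 9. Against Cre control at P14 the 0 calls became 0 to 4 leaving out 1 library, and 5 DESeq2 calls over all genes included none of the 9. The rise with stage gave 8 calls in control under every setting, 8 to 9 in cKO and 6 to 8 in Cre control, while the 3703 and 2217 calls over all genes in control and Cre control became 2164 and 947 with eBayes without trend. Wider list calls at P16 (16) became 4 with eBayes without trend and 7 with the kit fit, and against Cre control 5 became 3 by edgeR and 0 with eBayes without trend, no filter, the block or the kit. Where a group was left with 1 library, it was assumed to vary like the others. Beyond these effects of fewer libraries the cause was not tested.

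Whether replicate numbers pair the libraries is not stated in the labels. Deviations of libraries numbered 1 and 2 correlated between groups at 0.20, 0.080, 0.030 and -0.084 in the 4 tables (control P14, control P16, Cre P14 and Cre P16). These values neither establish nor exclude a pairing, and the main fits used none. The replicate block kept 5 calls against control at P16 and 1 for the stage effect on cKO. It gave 0 against Cre control at P16 (Zpbp adjusted p = 0.110), and 5 against Cre control at P14 (6966 over all genes), where it rests on the first 2 libraries of each group, so kit and genotype cannot be told apart.

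Signs turned as follows on the log2 scale. With all libraries and the kit, against both control types as a single group, Acr was -0.077 and Meig1 -0.21 at P16. In that fit at P14 Acr was -0.20, Spaca1 -0.23, Spata16 -0.19, Insl6 -0.28, Tcp11 -0.12 and Meig1 -0.20. Tcp11 was 0.0018 at P16 with quantile scaling. With the kit as a covariate, or within the second kit alone, against Cre control Spaca1 was -0.12, Insl6 -0.11 and Meig1 -0.58 at P16, and at P14 Acr was -0.92, Zpbp2 -0.46, Spaca1 -0.67, Spink2 -0.15, Spata16 -1.15, Tcp11 -0.51 and Meig1 -0.74. Insl6 against Cre control at P14 was 0.13 by edgeR, 0.13 by DESeq2, 0.20 with quantile scaling and 0.41 with the block. Spink2 in the stage effect on cKO was -0.047 by edgeR and -0.011 with no filter. Leaving out 1 library, Meig1 against control at P16 ranged from -0.029 to 0.15. At P14 against control the ranges were -0.12 to 0.88 for Zpbp2, -0.11 to 0.26 for Spaca1, -0.040 to 0.96 for Spata16, -0.17 to 0.47 for Insl6, -0.44 to 0.75 for Tcp11 and -0.078 to 0.43 for Meig1. Against Cre control they were -0.37 to 0.13 for Spata16 at P16, and at P14 -0.32 to 0.48 for Acr, -0.13 to 0.46 for Spaca1, -0.25 to 1.16 for Spata16, -0.41 to 0.41 for Insl6 and -0.32 to 0.78 for Tcp11. For the stage effect on cKO they were -0.34 to 0.18 for Acr, -0.53 to 0.48 for Zpbp2, -0.44 to 0.48 for Spink2, -0.016 to 0.64 for Insl6, -0.79 to 0.41 for Tcp11 and -0.38 to 0.15 for Meig1. All changes with a turned sign had not been called.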
